A study of Rattus norvegicus with 8 samples.

Results

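MiR-132 and miR-212 are a pair of microRNAs (miRNAs) cut from neighbouring hairpins, and both arms of each hairpin had probes on the array. These 4 arms, of 719 rat miRNAs on the array, were taken by name: rno-miR-132-3p, rno-miR-132-5p, rno-miR-212-3p and rno-miR-212-5p, where the prefix rno marks the rat. The cells were of the rat glioma line C6, and 100 ng of total RNA went on each single-colour (Cy3) array. One of 3 antipsychotic drugs was added daily for 5 days: haloperidol at 2, risperidone at 4 or clozapine at 25 µg/ml. Control cells were left untreated, and each of the 4 groups had 2 arrays. All groups grew in medium with 10% horse serum and 2% fetal bovine serum, and the labels name no vehicle for the control cells. Per the series' design text, the pair of arrays in each group came from biological repeats. All 8 samples are of that 1 tumour line. Slide column and group coincided, so these cannot be told apart.

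In mammals the miR-132 and miR-212 hairpins lie in 1 primary transcript. That transcript is known as a target of CREB, the cAMP-responsive transcription factor, and in neurons it is induced by activity and by the growth factor BDNF. The 3p arms are the main mature products and share a seed, the short 5′ stretch that chooses mRNA targets. A well known target is the GTPase regulator p250GAP, which restrains dendrite growth in rat neurons.

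The mature sequences show what the members share, with the seed (bases 2 to 8) in capitals. They are RefSeq's, on the plus strand of chromosome 10 in build GRCr8, and all 4 names matched. rno-miR-212-5p lies at chr10:60521771-60521794, rno-miR-212-3p at chr10:60521811-60521832, rno-miR-132-5p at chr10:60522055-60522076 and rno-miR-132-3p at chr10:60522091-60522112.
rno-miR-212-3p: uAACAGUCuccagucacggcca
rno-miR-132-3p: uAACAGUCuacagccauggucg
rno-miR-212-5p: aCCUUGGCucuagacugcuuacug
rno-miR-132-5p: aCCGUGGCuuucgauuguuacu
The 3p arms had the same seed, were identical over their leading 9 bases, and matched at 17 of 22 positions. Within RefSeq's rat miRNA entries that seed belonged to 2 mature names, these same 3p arms. The 5p arms differed in their seeds and matched at 14 of the 22 positions compared. The hairpins were 222 bases apart, counted from the end of miR-212-3p to the start of miR-132-5p. They lay between the protein-coding genes Hic1 and Ovca2, with a lncRNA (long noncoding RNA) gene listed between miR-132 and Ovca2. None of these neighbouring RefSeq genes covered both hairpins. The miR-132 hairpin, at chr10:60522033-60522133, is shown with its 2 mature arms in capitals.
miR-132 hairpin: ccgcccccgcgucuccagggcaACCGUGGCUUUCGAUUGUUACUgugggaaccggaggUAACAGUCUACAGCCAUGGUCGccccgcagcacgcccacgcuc

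Some arrays stood apart. The number of miRNAs detected was 254 and 242 with haloperidol, 249 and 193 with risperidone, 233 and 203 with clozapine, and 249 and 242 in controls. Risperidone replicate 2 and clozapine replicate 2 were thus the weakest arrays, and control replicate 1 lay farthest from the mean of all arrays (mean squared log2 deviation 0.417, against 0.0684 to 0.227 for the other 7). All 5 glial and glioma markers were detected on all 8 arrays. Of 6 neuronal markers 4 were detected, miR-128-3p, miR-129-5p and miR-218a-5p on 8 arrays and miR-153-3p on 5, while miR-124-3p and miR-137-3p were detected on 0 arrays. The summed log2 level of the 2 oligodendrocyte markers ranged from 0.01 to 0.43 with haloperidol, -0.12 to 0.66 with risperidone, 0.19 to 0.29 with clozapine and -1.19 to -0.37 in controls, and its part in the results was not tested. That sum was mostly miR-338-3p (mean log2 level -0.12, against -3.94 for miR-219-5p). MiR-338-3p lay above both controls under each drug. So did 11.1% of tested miRNAs under haloperidol, 6.17% under risperidone and 5.35% under clozapine. MiR-219-5p overlapped the controls under each drug.

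The 3p arm of the upstream hairpin, rno-miR-212-3p, was detected on 8 of 8 arrays and was the only member with a clear signal. Each of its 2 probes had 9 or 10 usable spots per array, and all 153 usable spots over the 8 arrays were well above background. By contrast rno-miR-132-3p was detected on 2 arrays, both of them controls, and on 0 of 6 drug arrays. The 5p arms, rno-miR-132-5p and rno-miR-212-5p, were detected on 0 arrays. The 2 hairpins of 1 transcript therefore differed in detection, and the arms of each hairpin did too.

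The probe signals behind these calls were far apart, although signals of different probes are not calibrated to each other. The summed background-subtracted signal of miR-212-3p, in scanner units, was 1560 and 986 with haloperidol, 1304 and 643 with risperidone, 1030 and 721 with clozapine, and 786 and 1057 in controls. That of miR-132-3p was 10.1 and 2.64 with haloperidol, 5.99 and -5.73 with risperidone, 0.571 and -3.56 with clozapine, and 15.9 and 13.9 in controls. All 6 drug arrays lay below both controls for miR-132-3p, as they did for 47% of all 719 miRNAs and for 72.6% of the 456 detected on no array, while for miR-212-3p the unscaled signals of each drug overlapped those of the controls or straddled them. The summed signals of the 5p arms were negative on every array, from -7.65 to -2.25 for miR-132-5p and from -11.4 to -3.47 for miR-212-5p.

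MiR-212-3p is given below as a log2 level, on which 0 is the 75th percentile of the array's probes above background. Its level was 0.08 and 0.05 with haloperidol, 0.26 and 0.75 with risperidone, 0.38 and 0.07 with clozapine, and -0.40 and 0.16 in controls. The highest value was that of risperidone replicate 2, the array with the fewest miRNAs detected, and the lowest that of control replicate 1, so the top and the bottom of the range both fell on arrays that stood apart. Over all arrays its mean was 0.17 ± 0.33 (SD, n = 8), which ranked 53 of 185 among miRNAs detected on all arrays. Its nearest neighbours in mean level were miR-99a-5p (0.20 ± 0.24) and miR-140-5p (0.12 ± 0.41), which did not differ from it beyond their spread.

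**Figure D1:**
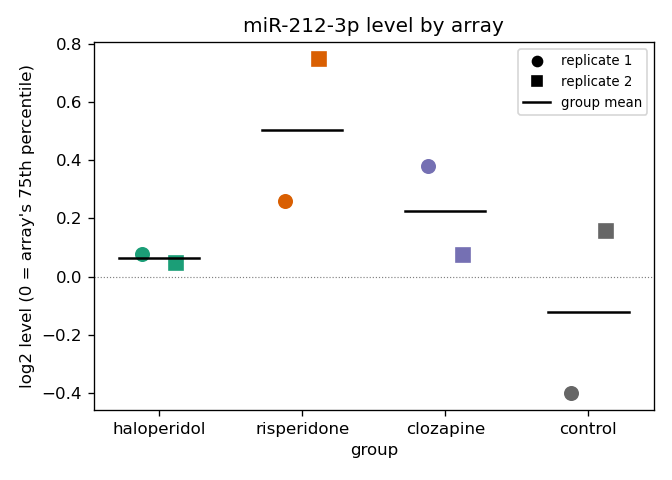
Log2 level of miR-212-3p on each array (y axis, 0 = the array's 75th percentile) by group, with circles for replicate 1, squares for replicate 2 and a line at the group mean. Both risperidone arrays lie above both control arrays, whereas the haloperidol and clozapine arrays fall between or above controls that are themselves 0.40 below and 0.16 above 0.

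Each drug was compared with untreated cells, which asks whether the drug moves the level of the miRNA. The group mean of miR-212-3p was 0.06 ± 0.02 in haloperidol cells, 0.50 ± 0.35 in risperidone cells and 0.23 ± 0.22 in clozapine cells, against -0.12 ± 0.39 in controls (SD, n = 2 each). The log2 fold changes over control were 0.18 for haloperidol (SE 0.27, 95% interval -0.49 to 0.85), 0.62 for risperidone (SE 0.27, -0.05 to 1.29) and 0.35 for clozapine (SE 0.27, -0.32 to 1.02). None passed: with limma over all 243 tested miRNAs the adjusted p was 0.733, 0.453 and 0.575. The fits called 0 of 243 miRNAs (0%) for each drug, with 17, 22 and 36 at an unadjusted p under 0.05. Over all tested miRNAs the log2 fold change had a median of -0.15, -0.15 and -0.17. For miR-212-3p only the risperidone and control arrays did not overlap; over all tested miRNAs, both drug arrays were above both controls for 11.1% under haloperidol, 6.17% under risperidone and 5.35% under clozapine. The estimate was above 0 under all 3 drugs, as for 26.7% of tested miRNAs (51% were below 0 under all 3), and the 3 comparisons share the same 2 control arrays. In RNA from whole cultures, a change in the share of cells that hold a miRNA and a change in its amount per cell cannot be told apart.

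The row of the slide was also the replicate number, so each drug array had a control array in its own row. Within row 1 miR-212-3p differed from control by 0.48 under haloperidol, 0.66 under risperidone and 0.78 under clozapine, and within row 2 by -0.11, 0.59 and -0.08. The positive differences of haloperidol and clozapine thus came from row 1, which holds control replicate 1, and that of risperidone was present in both rows. Without control replicate 1 the log2 fold changes were -0.10, 0.35 and 0.07, and without control replicate 2 they were 0.46, 0.90 and 0.63. Without risperidone replicate 2 the risperidone value was 0.38, and without clozapine replicate 1 the clozapine value was 0.20.

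The 2 probes of miR-212-3p moved together. The signal of probe 2 was 3.53 ± 0.067 times that of probe 1 (SD, n = 8 arrays). Probe 1 alone gave log2 differences from control of 0.16, 0.60 and 0.31 under haloperidol, risperidone and clozapine, and probe 2 alone 0.19, 0.63 and 0.36. The probes share a target and a hybridisation, so they are not replicates of the cells.

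**Figure D2:**
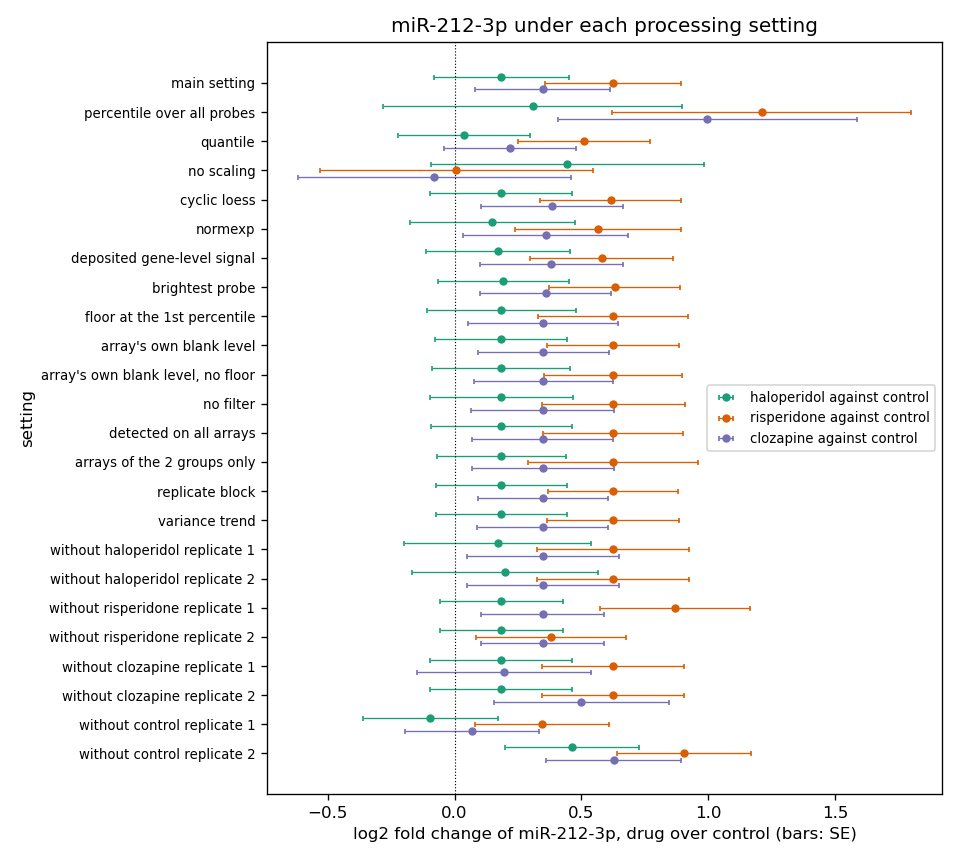
Log2 fold change of miR-212-3p over control (x axis, bars are standard errors) for the 3 drugs under the main setting and each of the 23 alternatives (y axis). Most points stay near the main values of 0.18, 0.62 and 0.35, while scaling and the choice of control array move them the most.

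Drug was also compared with drug, at the doses given, which differ. MiR-212-3p differed by 0.44 between risperidone and haloperidol (SE 0.27, 95% interval -0.23 to 1.11) and by 0.16 between clozapine and haloperidol (-0.51 to 0.83). The difference between clozapine and risperidone was -0.28 (-0.95 to 0.39). Adjusted p was 1 in limma for all 3 pairs, and 0 of 243 miRNAs (0%) were called in any of them, with 0, 3 and 4 at an unadjusted p under 0.05. Both risperidone arrays were above both haloperidol arrays, which 12.8% of tested miRNAs also showed, with 9.88% below without overlap. The clozapine arrays overlapped those of haloperidol and of risperidone. Over all tested miRNAs, clozapine was above haloperidol without overlap for 6.17% and below for 16%, and above risperidone for 5.76% and below for 8.64%. Ordered by mean level the groups ran risperidone, clozapine, haloperidol and control, and no pair of neighbours differed beyond its spread. This order depends on the scaling and on single arrays. Without scaling, haloperidol was highest and clozapine lowest, with 0.44, 0.0068 and -0.080 over control for haloperidol, risperidone and clozapine. The difference between risperidone and haloperidol was 0.20 without risperidone replicate 2 and 0.68 without risperidone replicate 1. That between clozapine and haloperidol was 0.011 without clozapine replicate 1 and 0.32 without clozapine replicate 2. That between clozapine and risperidone was -0.032 without risperidone replicate 2 and -0.52 without risperidone replicate 1. These intervals still include differences of about 1 on the log2 scale, so they do not show that the drugs act alike.

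MiR-132-3p, the other carrier of the shared seed, sat at the edge of detection. In controls, 3 and 4 of 10 spots of probe 1 were well above background, and 0 spots of probe 2. On the drug arrays 0 spots of either probe were. Probe 1 read 8.56 and 3.98 with haloperidol, 5.48 and -1.45 with risperidone, 2.80 and -0.75 with clozapine, and 11.2 and 10.6 in controls. Probe 2 read 1.56 and -1.34 with haloperidol, 0.51 and -4.28 with risperidone, -2.23 and -2.81 with clozapine, and 4.68 and 3.23 in controls. Every drug array lay below both controls on each of the 2 probes, as on 37.6% of all 1730 probes and on 55.3% of the 1101 probes of miRNAs detected on no array.

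Zero on this scale was not the blank level of the arrays. The median probe of the 456 miRNAs detected on no array read -4.41 and -4.19 with haloperidol, -4.27 and -5.13 with risperidone, -4.13 and -5.79 with clozapine, and -2.46 and -3.42 in controls. These blanks too were highest on the controls. Against the 1101 blank probes of its own array, probe 1 of miR-132-3p ranked above 94.4% to 100% on every array, drug arrays included, and probe 2 above 65.1% to 98.2%. The 5p arms stood near the blanks, from 0.97 to 2.44 units above the median blank for miR-132-5p and from -0.28 to 1.40 for miR-212-5p. Their own probes are among the 1101 blank probes, since both 5p arms were detected on no array, so this nearness is partly built in.

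**Figure D3:**
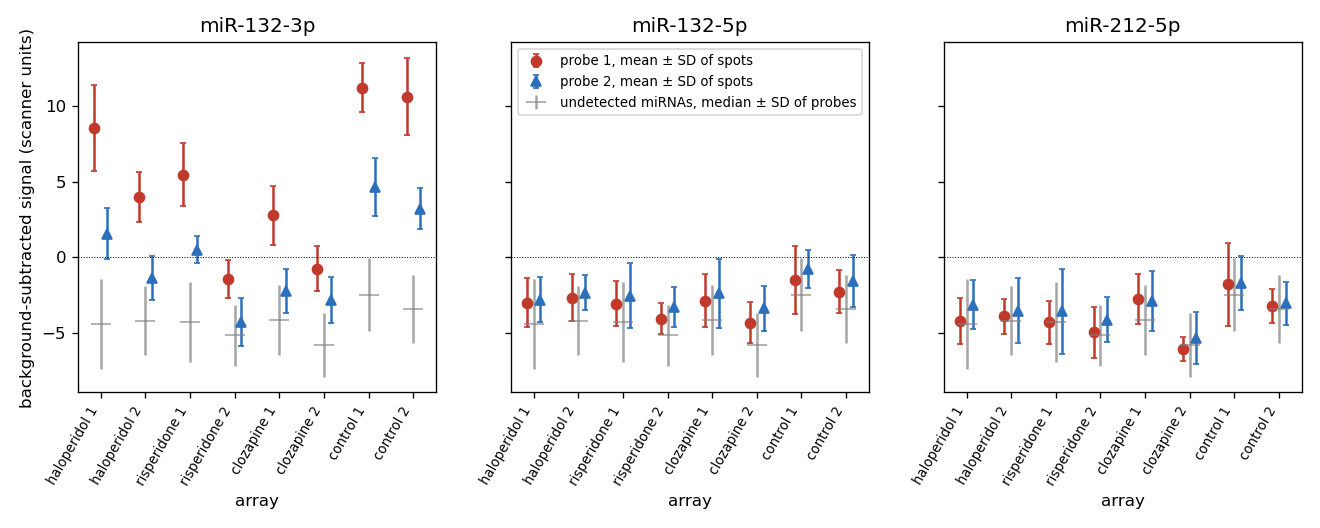
Background-subtracted signal in scanner units (y axis) on each array (x axis) for both probes of miR-132-3p, miR-132-5p and miR-212-5p, as mean ± SD over spots, beside the median ± SD of probes of undetected miRNAs (grey). Probe 1 of miR-132-3p stands above the grey blanks on every array and is highest on the controls, at 11.2 and 10.6. The 5p arms, whose probes are part of the blanks, overlap them on every array.

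In the main setting, low values were held at a floor of -6.21, and miR-132-3p was at that floor on all 6 drug arrays, against -6.03 and -6.09 in the controls. The log2 difference from control was therefore fixed at -0.15 (SE 0.11) under each drug, with adjusted p of 0.576, 0.549 and 0.575 in limma, and was close to the median of all tested miRNAs given above. Drug arrays lay below both controls for 32.9%, 32.9% and 34.2% of tested miRNAs under haloperidol, risperidone and clozapine. With the floor at the 1st percentile of detected values the difference was -1.48, -1.64 and -1.83, with adjusted p of 0.326, 0.189 and 0.191 in limma, so its size is set by the floor. No fold is given against the lowest signal well above background, because miR-132-3p was itself not well above background on most spots of the controls. Detected on both control arrays and on no drug array was a pattern that 1 of 243 tested miRNAs showed (0.412%), and that miRNA was miR-132-3p. It entered the test only through the controls, where it is higher, so its lower values under the drugs are not independent support for a fall.

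Because the blanks differed between arrays, miR-132-3p was also taken over the blank level of its own array with no floor, a setting chosen after the data had been seen. In scanner units its signal over blank was 18.9 and 11.02 with haloperidol, 14.5 and 4.53 with risperidone, 8.83 and 8.02 with clozapine, and 20.8 and 20.7 in controls, so haloperidol replicate 1 was close to the controls. As a percentage of the array's 75th percentile it was 1.28 and 1.15 with haloperidol, 1.33 and 1.17 with risperidone, 1.11 and 1.16 with clozapine, and 2.00 and 2.18 in controls. After this division the 6 drug arrays lay closer together and the 2 controls above them. The group means were 1.21 ± 0.09, 1.25 ± 0.11 and 1.13 ± 0.04 under haloperidol, risperidone and clozapine, against 2.09 ± 0.12 in controls (SD, n = 2 each). The log2 differences from control were -0.78, -0.75 and -0.88. They are a description: 0 spots were well above background on the drug arrays, and miR-132-3p had been chosen for testing by its detection in controls. Of the 243 miRNAs, 0% passed in limma in this setting, with 8, 16 and 20 at an unadjusted p under 0.05. Groups that did not overlap, with the drug lower, were seen for 33.2%, 19.5% and 27% of the 241 miRNAs with a value on every array, whose median differences were -0.11, 0.05 and -0.05.

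**Figure D4:**
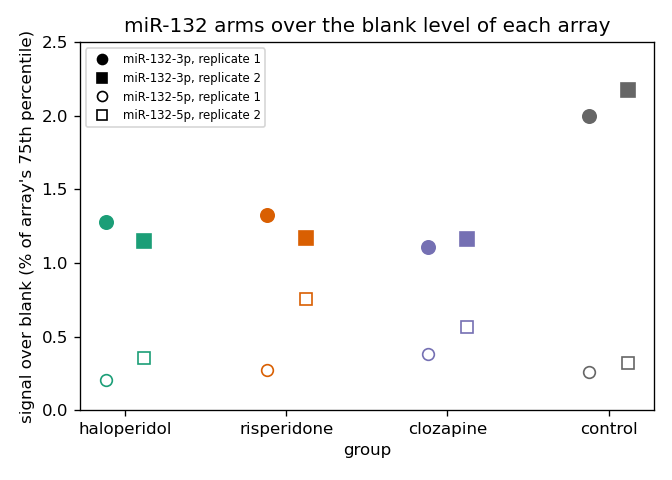
Signal of miR-132-3p (filled) and miR-132-5p (open) over the blank level of each array, as a percentage of the array's 75th percentile (y axis), by group, with circles for replicate 1 and squares for replicate 2. MiR-132-3p lies at 2.00 and 2.18 in controls and between 1.11 and 1.33 on the 6 drug arrays, while the undetected miR-132-5p reaches 0.752 on risperidone replicate 2.

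The ratio of miR-132-3p to miR-212-3p within an array depends on the scaling only through the floor. With the floor its log2 value changed from control by -0.33 with haloperidol (SE 0.51), -0.77 with risperidone (SE 0.51) and -0.50 with clozapine (SE 0.51), and by limma none passed (adjusted p 0.813, 0.255 and 0.571). Of 242 such ratios, 0%, 4.96% and 0.413% passed under haloperidol, risperidone and clozapine, in a fit whose rows share 1 denominator, so that its p-values may be too low. With miR-132-3p at the floor on every drug array, differences between the drugs in this ratio come from miR-212-3p alone. Over the blank level and with no floor the changes were -0.97, -1.37 and -1.23, given as a description for the same reason as above.

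Other neighbouring hairpins also differed in detection on these arrays. Of 85 pairs of adjacent hairpins on the same strand within 1000 bases of each other in RefSeq, 31 had an arm of both detected on all 8 arrays and 35 had no arm of either detected. In 9 pairs 1 hairpin was detected on all arrays and the other on at most 2, and miR-212 with miR-132 was 1 of these 9. Detection was read by mature name, so a name shared by several loci counted at each of them. The array cannot tell which such locus made the miRNA, and these counts are a description. Arms of 1 hairpin differed as well. Of 261 hairpins with both arms on the array, 33 had the 3p arm on all 8 arrays and the 5p arm on 0, as miR-212 did, and 38 showed the reverse.

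The other miRNAs tied to CREB, cAMP or neuronal activity gave a mixed picture. Of a list of 10, all on the array, 6 were tested. The dendritic miR-134-5p and miR-138-5p, the neuronal miR-124-3p and the endocrine miR-375-3p were detected on 0 arrays. Of the 6 tested, 0 passed under any drug, and 4 lay above 0 under haloperidol, 3 under risperidone and 4 under clozapine. The median of these 6 log2 fold changes was 0.45 under haloperidol, 0.28 under risperidone and 0.14 under clozapine, beside the medians of -0.15, -0.15 and -0.17 for all 243.

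Among them, miR-34b-5p and miR-34c-5p share a transcript and are known targets of p53. The level of miR-34b-5p was -0.47 and 0.08 with haloperidol, -0.33 and -0.49 with risperidone, -1.34 and -0.30 with clozapine, and -1.94 and -0.52 in controls. Its drug arrays lay above both controls under haloperidol and risperidone but not under clozapine, and the low value was again control replicate 1. The log2 fold changes of miR-34c-5p were 0.78, 0.63 and 0.39 (SE 0.53 each). Those of miR-219-5p, a clock-linked miRNA of brain, were 0.82, 0.59 and 0.10 (SE 0.73 each). For both miR-34c-5p and miR-219-5p the drug arrays overlapped the controls under each drug. Control replicate 1 was the lowest array for each, at -1.32 and -4.99. The brain-enriched miR-9-3p, named rno-miR-9a-3p on the array, was at 0.11, -0.02 and 0.19 (SE 0.44 each), and its arrays overlapped the controls under each drug. On the other side, the dopamine-responsive miR-181a-5p was at -0.43, -0.17 and -0.23 (SE 0.27 each) and the inflammation-linked miR-146a-5p at -0.12, -0.30 and -0.10 (SE 0.46 each). MiR-181a-5p lay below both controls under haloperidol, as did 32.9% of tested miRNAs, and overlapped them under the other drugs. MiR-146a-5p overlapped the controls under each drug. Control replicate 1 was here the highest array for both, at -1.14 and -0.74.

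The 3 miRNAs whose levels ran closest to that of miR-212-3p over the 8 arrays, of 184 others detected on all of them, were miR-3593-3p (Pearson r 0.94), miR-3473 (0.90) and miR-551b-5p (0.90). All 3 were likewise highest on risperidone replicate 2, at -2.89, 0.30 and -2.41, and lowest on control replicate 1, at -4.91, -1.21 and -4.92. The arrays that stood apart thus set both ends of the shared pattern. Ranked instead of measured, the likeness was 0.74, 0.69 and 0.95 (Spearman rho), given as a description.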

How the data were processed

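The authors scanned 8 arrays on 1 slide and, per the file headers, extracted them with Agilent Feature Extraction 10.7.3.1. Deposited spot and miRNA values are linear intensity, not scaled between arrays, with unit other (0 or 1) for the deposited detection and background flags. The deposited miRNA signal is 0.1 where not detected.

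Background-subtracted spots without outliers were averaged per probe, summed per miRNA, scaled on each array to the 75th percentile of the 292 probes whose spots were mostly well above background everywhere, floored at the 5th percentile of detected values and taken to log2. The 243 miRNAs that some group had detected on 2 of its 2 arrays were tested in limma 3.58.1 (R 4.3.3) over all 8 arrays, two-sided, with Benjamini-Hochberg adjustment at 0.05. The ratio test divides all rows by 1 miRNA, so its rows are not independent and its p-values may be too low. With 2 arrays in each group, the smallest exact permutation p is 0.333. The fit was tested on simulated data, for haloperidol against control only. It recovered 30.2% of 2-fold and 88.5% of 4-fold changes over 20 draws, with 0.7 and 1.45 false calls on average. Most 2-fold changes were thus missed. Normexp used spot medians and an offset of 50.

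The number of arrays limits the precision. Named are the members, the CREB and activity list, cell markers, level neighbours and the 3 miRNAs most like a member detected on all arrays. Members and lists were chosen with earlier results of these data known. The leukocyte list (miR-155-5p not analysed here) had 3 of 4 detected somewhere and 2 tested, with medians of -0.44, -0.18 and -0.31 under the 3 drugs. The erythrocyte list (miR-486-5p not analysed here) had 1 of 2 detected and 0 tested. Medians of the 5 glial markers were -0.01, -0.11 and -0.02, of the 4 tested neuronal markers -0.02, -0.17 and -0.21, and of the 2 oligodendrocyte markers 0.92, 0.84 and 0.59, with 0 called in each list.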

Additional observations from a re-analysis of the deposited data

How the results depend on the processing

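No alternative brought miR-132-3p, miR-212-3p or their ratio past the threshold in any comparison run. For miR-212-3p the 23 alternatives gave -0.10 to 0.46 with haloperidol, 0.0068 to 1.21 with risperidone and -0.080 to 0.996 with clozapine. Without scaling between arrays the clozapine value was -0.080, and those of risperidone against haloperidol and clozapine against haloperidol were -0.44 and -0.52. Leaving out each array gave -0.10 (without control replicate 1) to 0.46 for haloperidol. The floored difference of miR-132-3p turned to 0.059, 0.15 and 0.24 under the 3 drugs with cyclic loess. Normexp used no floor but added an offset of 50 to every spot. Background-subtracted probe signals of miR-132-3p were only -4.28 to 11.2. Normexp gave -0.31 for haloperidol, 0.42 for risperidone and 0.80 for clozapine. For risperidone and clozapine the sign was thus opposite to that over the blank level with no floor. With normexp the log2 ratio to miR-212-3p changed by 0.44 under clozapine. The median of all tested miRNAs moved too, to 0.09, -0.64 and -0.55 without scaling and to -0.17, 0.37 and 0.55 with normexp. Relative to that median, miR-212-3p was at 0.35, 0.65 and 0.47 without scaling and at 0.32, 0.20 and -0.19 with normexp, against 0.33, 0.77 and 0.52 in the main setting. MiR-132-3p, relative to the median, was at -0.14, 0.05 and 0.26 with normexp. Over the blank level with no floor it was at -0.67, -0.80 and -0.83. The cause of these shifts was not tested. With each array's own blank level subtracted and the floor still at the 5th percentile of detected values, both controls of miR-132-3p fell to that floor. The floor in this setting lay above the blank level, which these controls exceeded by 20.8 and 20.7 scanner units.

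The count of called miRNAs, 0 for each drug, became 1 for risperidone without a filter (miR-221-3p). With the replicate block it was 1 for risperidone (miR-338-5p, at -1.18) and 2 for clozapine (miR-338-5p at -1.26 and miR-3561-5p at -1.31). All were lower than in controls, so miR-338-5p went the other way from the oligodendrocyte marker miR-338-3p. These names were chosen after their values were seen, and the block left the calls on the members unchanged. Correlations of the replicate differences between groups were 0.16 to 0.71, and the labels do not say that a number marks a shared batch. Leaving out each array gave 0 to 5, 0 to 6 and 0 to 7 calls for haloperidol, risperidone and clozapine, the highest each without control replicate 2, and 0 of these were members. A lone remaining array was assumed to vary like the other groups.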
